A study of Mus musculus with 33 samples.

Results

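The genes described here encode laminins, collagens, nidogens and integrins, together with Sparc and fibronectin (Fn1), in single mouse blastocysts. A gene belonged to the set if the array's gene name began with Lama, Lamb, Lamc, Itga or Itgb and a digit, or with Col, digits and a, or was Nid1, Nid2, Sparc or Fn1; Lama1 was left out by the rule, and Hspg2, which the rule also named, was not among the gene names of the array. This gave 81 of the 27668 genes named on the array. The choice used names only and no measured value. Of the 81, 48 could be tested. For these a probe was detected (well above background) on more than 50% of the arrays in 1 group or more. That probe also had to exceed a common floor, given below, on 3 or more arrays and to have valid values in every group. Some of the other 33, Itga5 and Col1a1 among them, had a detected probe but did not meet these further conditions. All 33 are listed at the end of the results.

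Gene expression had been measured on 33 one-colour arrays, each with the amplified RNA of a single blastocyst of the strain (C57BL/6NxDBA/2)F1. The clones came from nuclei of adult Purkinje cells (4 male and 4 female blastocysts), adult CA1 pyramidal cells of the hippocampus (4 male, 4 female), neonatal Sertoli cells of the testis (4, male) and adult cumulus cells of the ovary (3, female). All of them had been exposed to 50 nM trichostatin A, a histone deacetylase inhibitor. The controls were blastocysts made by in vitro fertilisation (IVF, 7 male and 3 female). The labels name no trichostatin A for them, so that cloning and this treatment cannot be told apart. A culture time, the same for all clones, is likewise not given for IVF blastocysts, so it is not known whether their ages matched. A blastocyst is a mixture of trophectoderm, epiblast and primitive endoderm, and in such a mixture fewer cells of a type and less RNA per cell cannot be told apart.

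Levels are given as log2 of the signal divided by the 75th percentile of the array, with a common floor at -3.43, and a difference is the first group's mean minus the second's on this log2 scale. Calls rest on limma, fitted to 15792 genes, with Benjamini-Hochberg adjustment and a threshold of 0.05. The IVF and cumulus arrays (13) had been scanned on another scanner model with an older software version than the 20 arrays of neuronal and Sertoli clones. Against IVF, therefore, donor and array set cannot be told apart except for cumulus clones, and each clone group also lay on a slide of its own. Purkinje arrays were dim, with 75th percentiles of 229.7 to 659.1 in males and 353.8 to 838 in females, against 904.3 to 1466 on all other arrays. The labels do not say whether blastocysts of a group shared a donor animal or a transfer session, so the spread behind each p-value is that of these samples alone and may be technical.

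The basement membrane is a sheet of laminin and collagen IV networks that nidogen and perlecan tie together. Laminins are trimers of an alpha, a beta and a gamma chain, and the main collagen IV molecule joins alpha chains from Col4a1 and Col4a2. In the mouse blastocyst the first such sheets form between primitive endoderm and epiblast and under the trophectoderm; parietal endoderm later lays down the thick Reichert's membrane. Integrins, pairs of an alpha and a beta subunit, are the cell surface receptors for these proteins.

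Col4a1 and Col4a2 lie head to head on chromosome 8, and their shared start is shown because both genes recur in the results. In the RefSeq annotation of build GRCm38.p6, Col4a1 starts at position 11312826 on the minus strand and Col4a2 at 11312805 on the plus strand, so the 2 genes overlap by 22 bases at their annotated starts. The windows of 250 bases upstream of Lamb1, which was lower in 5 clone groups, and of Itga11, which was higher in 4, are shown beside it. Capitals mark matches to the motif GGGCGG (the GC box), to CCAAT and to GATAA on either strand. A GC box on the other strand reads CCGCCC, and no match in these windows overlaps another.
Col4a1 and Col4a2 start, chr8:11312797-11312826, plus strand: ccctcggcagtgcgcGGGCGGcgtctccaa
Lamb1 upstream, chr12:31265043-31265292, plus strand: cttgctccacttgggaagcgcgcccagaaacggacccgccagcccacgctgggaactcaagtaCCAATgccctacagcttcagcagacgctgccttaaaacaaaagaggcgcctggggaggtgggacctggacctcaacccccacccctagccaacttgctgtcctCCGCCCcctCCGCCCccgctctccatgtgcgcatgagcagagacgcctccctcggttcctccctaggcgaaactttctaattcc
Itga11 upstream, chr9:62677605-62677854, plus strand: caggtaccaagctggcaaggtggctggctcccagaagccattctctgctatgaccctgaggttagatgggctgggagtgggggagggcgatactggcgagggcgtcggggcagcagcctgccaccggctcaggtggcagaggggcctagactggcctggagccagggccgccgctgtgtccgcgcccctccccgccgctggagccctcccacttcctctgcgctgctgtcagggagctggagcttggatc
GGGCGG was found in 32.7% of the 32851 upstream windows of 250 bases in the table, CCAAT in 33.8% and GATAA in 22.6%. Of the 33 windows matched to 31 tested genes of the set, 51.5% held GGGCGG, 30.3% CCAAT and 12.1% GATAA. The 32851 windows were not limited to genes that passed the detection filter, so the shares are not of like genes. These matches are letters in a window and were not tested against the expression values.

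The share of the set called in either direction lay close to that of all genes in most comparisons. In male Purkinje clones 3 of the 48 genes rose and 8 fell against male IVF blastocysts, which was 22.9% of the set, where 28.6% of all genes tested were called (18.3% higher and 10.3% lower). In male CA1 clones 9 rose and 8 fell, 35.4% of the set against 31% of all genes (17.7% higher, 13.3% lower). In Sertoli clones 9 rose and 4 fell, 27.1% against 25.8% (15% higher, 10.8% lower). The median difference of the 48 genes was 0.00, 0.00 and 0.25 in these 3 groups, and that of all genes 0.07, 0.01 and 0.00.

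Among females, 3 rose and 7 fell in Purkinje clones, 20.8% of the set against 19.7% of all genes (13% higher, 6.67% lower). In CA1 clones 3 rose and 5 fell, 16.7% against 13.3% (8.4% higher, 4.88% lower), and in cumulus clones none rose and 3 fell, 6.25% against 5.31% (1.95% higher, 3.36% lower). The shares of the set called in either direction were near those of all genes, and by themselves they do not set these genes apart. The balance of directions was less alike. In Purkinje clones of both sexes and in female CA1 clones more genes of the set fell than rose, while more of all genes were called higher than lower. In male CA1, Sertoli and cumulus clones the set and all genes leaned the same way. The difference in balance was not tested. Comparisons of the same sex share their IVF blastocysts.

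The balance of higher and lower calls depended on the scaling. After normexp background correction the median difference of all genes was 0.58 and 0.59 in male and female Purkinje clones, 0.37 in female CA1 and 0.11 in Sertoli clones, and changes are to be read relative to it. Then 24 genes were higher and 6 lower in male Purkinje clones, and 26 higher and 6 lower in female ones. In each comparison the normexp run also tested genes of the set that had not passed the filter under the main scaling. These added genes differed by 1.26 to 2.09 in male and by 1.57 to 2.42 in female Purkinje clones. The normexp counts are therefore not out of the same genes as the main ones, and the calls among the added genes are not given separately. For male Purkinje clones the split was 1 to 10 after quantile normalization, 1 to 9 after scaling to the array median and 5 to 7 in the authors' deposited table.

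Scaling to the array median gave 0 to 15 in female Purkinje clones, with all tested genes then at a median of -0.32, 6 to 9 in male CA1 clones and 5 to 4 in Sertoli clones. In female CA1 clones the split was 1 to 3 after normexp and 2 to 6 after quantile normalization. In the authors' deposited table the median of all genes lay between 0.17 and 0.29 in the 5 neuronal and Sertoli groups. Lamb1, Lamb2, Col4a1, Col4a2, Col4a4, Col13a1, Col6a3, Sparc and Itgb3bp had negative differences, and Itga11 positive ones, in all 6 clone groups under each of these 4 scalings too.

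**Figure D1:**
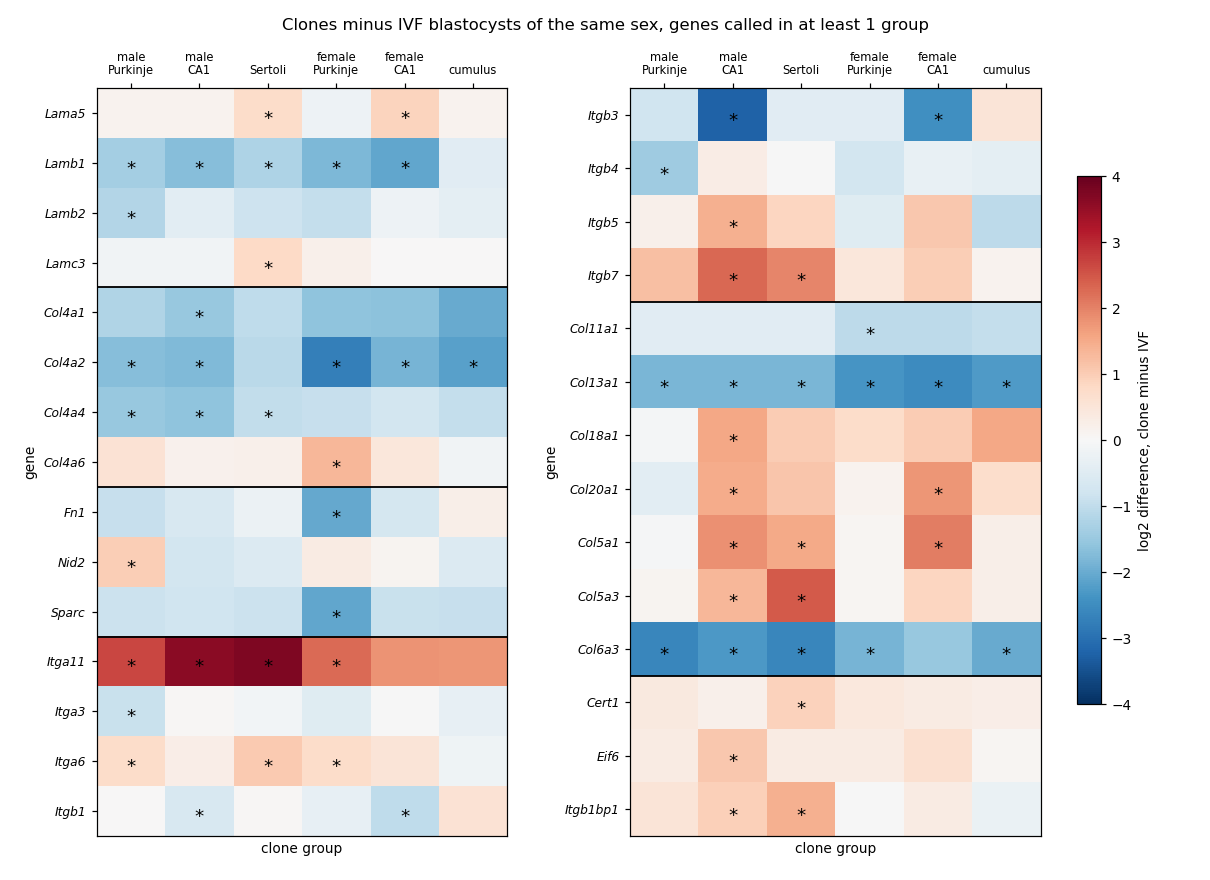
Differences between clone and IVF blastocysts of the same sex for the 29 of 48 tested genes that were called in at least 1 clone group, by family (rows) and clone group (columns). Colour gives the log2 difference, clones minus IVF, and a star marks an adjusted p under 0.05 in limma; Lamb1, Col4a2, Col13a1 and Col6a3 show a row of blue with 5 or 6 stars, and Itga11 a row of red with 4.

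Of the 10 laminin genes 8 were tested, and the one that fell most widely was Lamb1, the beta chain of the laminins of the early embryo. Its log2 level was 2.55, 3.47, 4.15 and 2.92 in male Purkinje clones, 3.18, 2.84, 3.25 and 2.36 in male CA1 clones and 4.0, 3.25, 3.85 and 2.51 in Sertoli clones, against 3.74 to 5.68 in male IVF blastocysts (median 4.34, n = 7). Every male CA1 clone lay below every male IVF blastocyst, while Purkinje and Sertoli clones overlapped with them. The difference was -1.35 ± 0.41 (SE, adjusted p = 0.0134) for Purkinje, -1.72 ± 0.41 (adjusted p = 0.00194) for CA1 and -1.22 ± 0.41 (adjusted p = 0.0274) for Sertoli clones.

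In females Lamb1 was 3.51, 3.26, 3.35 and 3.45 in Purkinje clones, 2.82, 2.76, 2.44 and 4.45 in CA1 clones and 5.00, 4.14 and 5.08 in cumulus clones, against 5.34, 4.90 and 5.32 in IVF blastocysts. All 8 neuronal clones lay below all 3 IVF blastocysts. Lamb1 fell by 1.79 in Purkinje clones (adjusted p = 0.0115) and by 2.07 in CA1 clones (adjusted p = 0.00602), and the cumulus difference of -0.45 did not pass the test. Cumulus clones are the group on the same kind of array as IVF. The Purkinje call was lost without male Purkinje replicate 1 (-1.11) or 4 (-1.24), and the Sertoli call without male IVF replicate 3 (-1.06) or 4 (-1.04) or Sertoli replicate 2 (-1.17) or 4 (-0.92).

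Lamc1, the gamma chain that most embryonic laminins contain, was called in no comparison, with group means of 6.27 ± 0.35 (SD, n = 4) in male Purkinje, 6.58 ± 0.20 in male CA1 and 6.49 ± 0.28 in Sertoli clones, against 6.24 ± 0.69 (n = 7) in male IVF blastocysts. Among females the mean was 5.55 ± 0.48 in Purkinje, 6.36 ± 0.60 in CA1 and 5.95 ± 0.70 in cumulus clones, against 6.29 ± 0.57 in the 2 IVF blastocysts with a valid spot. Lama5, an alpha chain widespread in epithelia, rose in Sertoli clones, with 5.19, 4.93, 5.07 and 5.50 against 4.04 to 4.68 in male IVF blastocysts (median 4.39), a difference of 0.75 ± 0.20 (adjusted p = 0.00688) with no overlap. It was 0.43 after quantile normalization and 0.62 after normexp correction or scaling to the array median, each without a call.

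Lama5 also rose in female CA1 clones, with levels of 5.91, 5.47, 5.06 and 5.78 against 4.85 and 4.50 in the 2 female IVF blastocysts with a valid spot (0.88, adjusted p = 0.0332). That call was lost without any one of female IVF replicates 2 (1.05) and 3 (0.70) and CA1 replicates 1 (0.76) and 4 (0.80). Lamb2, the beta chain of synaptic and kidney laminins, fell by 1.18 in male Purkinje clones (adjusted p = 0.0284), but not without Purkinje replicate 3 (-0.99) or 4 (-1.02) or IVF replicate 1 (-1.05) or 6 (-1.02). Lamc3 was on the floor in 6 of 7 male IVF blastocysts, and its call in Sertoli clones (0.79, adjusted p = 0.0489) came to 0.20 without Sertoli replicate 4; it was also lost without any one of 7 other arrays (0.76 each). Lama3 and Lama4 were called in no clone group, with differences from -1.45 (Lama4, female Purkinje clones) to 2.0 (Lama4, cumulus clones).

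Collagen IV genes were lower in clones of several donors. Of 6 collagen IV genes 4 were tested, and their median difference lay between -1.55 in male CA1 clones and -0.99 in Sertoli clones, where the median of all genes was 0.01 and 0.00. Col4a2 measured 1.37, 1.18, 0.75 and 0.06 in male Purkinje clones, 0.37, 0.70, 1.18 and 0.89 in male CA1 clones and 2.0, 0.00, 1.19 and 2.67 in Sertoli clones, against 1.4 to 3.14 in male IVF blastocysts (median 2.68). None of the 8 male neuronal clones reached the lowest male IVF blastocyst, whereas 2 of the 4 Sertoli clones did.

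Col4a2 fell by 1.71 in male Purkinje clones (adjusted p = 0.0102) and by 1.76 in male CA1 clones (adjusted p = 0.00724), and its difference of -1.08 in Sertoli clones did not pass. In females its level was -0.10, 0.83, -0.54 and 0.21 in Purkinje clones, 0.79, 0.84, 0.01 and 2.22 in CA1 clones and 2.01, -1.16 and 1.09 in cumulus clones, against 3.09, 2.29 and 3.11 in IVF blastocysts. All 11 female clones lay below the 3 IVF blastocysts, and the gene fell by 2.73 in Purkinje (adjusted p = 0.00221), 1.86 in CA1 (adjusted p = 0.037) and 2.18 in cumulus clones (adjusted p = 0.0433). A second probe of Col4a2 differed by -1.03 to -2.82 over the 6 groups, in the same direction as the first.

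The female CA1 and cumulus calls of Col4a2 were the least stable. The female CA1 call was lost without any one of 5 arrays, at -1.54 to -1.82, and the cumulus call without any one of IVF replicates 1 (-2.05), 2 (-2.45) and 3 (-2.04) and cumulus replicates 2 (-1.27) and 3 (-2.40). In male Purkinje clones the call was lost without replicate 4 (-1.45).

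Col4a1, the other chain of that molecule, was lower in all 6 clone groups by 1.00 to 2.01 on the log2 scale, and passed the test in male CA1 clones only (-1.51 ± 0.49, adjusted p = 0.021). There it measured 1.45, 2.32, 2.77 and 2.38, against 3.21 to 4.53 in male IVF blastocysts (median 3.51), with no overlap. The call was lost without CA1 replicate 1 (-1.25) and when the probes of a gene were averaged (-0.85), since a second probe of Col4a1 differed by -0.18 in male CA1 clones and by 0.37 in Sertoli clones. In the other 4 groups that probe was lower by 0.76 to 1.68.

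Col4a4, a chain of the collagen IV of mature kidney membranes, fell in the 3 male clone groups, by 1.53 ± 0.29 in Purkinje (adjusted p = 0.000275), 1.60 in CA1 (adjusted p = 0.000108) and 0.98 in Sertoli clones (adjusted p = 0.0125). It measured -1.59, -0.90, -1.36 and -1.11 in Purkinje, -1.27, -1.56, -1.01 and -1.41 in CA1 and -0.65, -1.09, -0.79 and -0.24 in Sertoli clones, against -0.75 to 1.22 in male IVF blastocysts (median 0.46). The Purkinje and CA1 clones lay below all of these, and the Sertoli call was lost without Sertoli replicate 2 (-0.85). In females the differences of -0.74 to -0.94 were not called. Col4a6 rose in female Purkinje clones, with -1.16, -0.11, -0.35 and -0.33 against -1.50, -2.27 and -1.72 in female IVF blastocysts (1.34, adjusted p = 0.00757). The call was lost without IVF replicate 2 (1.12), without the dim Purkinje arrays (0.67) and after scaling to the array median (0.73).

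**Figure D2:**
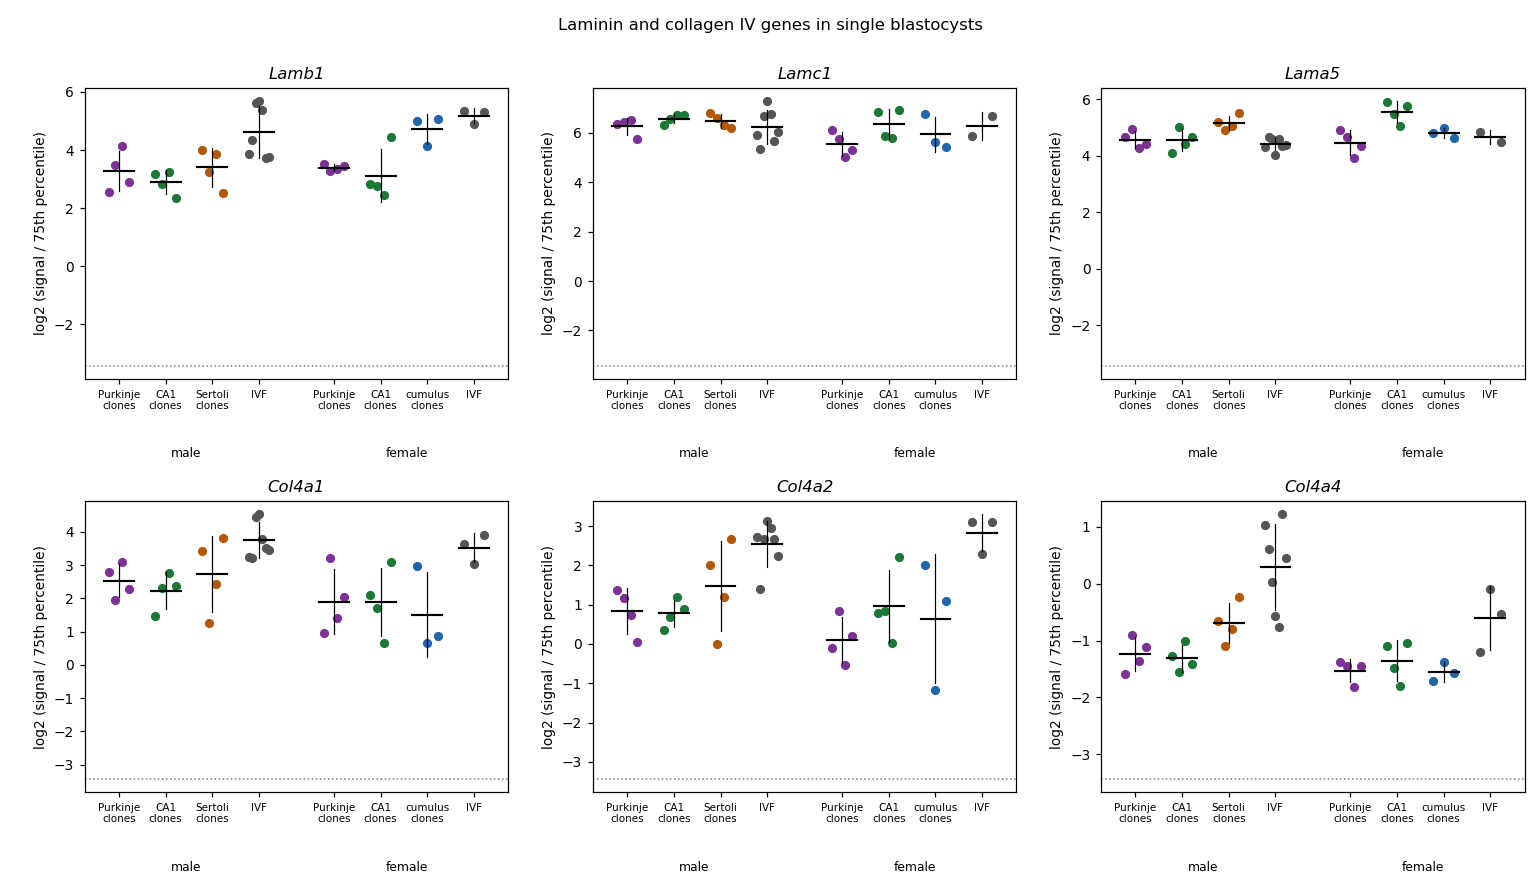
Log2 levels (signal over the array's 75th percentile) of 3 laminin and 3 collagen IV genes in each blastocyst, with the mean and SD of each group; the dotted line is the floor at -3.43. For Col4a2 all 16 neuronal clones sit below the IVF blastocysts of the same sex; for Lamb1 all but the male Purkinje clones do, which overlap with IVF.

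Primitive endoderm makes much of the collagen IV and laminin of the blastocyst, and several of its markers fell in each clone group. All 12 markers of the list were tested. The mean level over the list ran from 0.90 to 1.4 in male Purkinje, 0.33 to 1.18 in male CA1 and 0.27 to 1.08 in Sertoli clones, against 1.19 to 3.03 in male IVF blastocysts. In females it ran from 0.55 to 1.41 in Purkinje, 0.42 to 1.79 in CA1 and 0.53 to 2.10 in cumulus clones, against 1.92 to 2.81 in IVF blastocysts. Foxa2 was above background on no array of male Purkinje, Sertoli and female Purkinje clones, and Gata4 on none of Sertoli and female Purkinje clones.

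Of the 12 markers, male Purkinje clones had 5 that fell and 2 that rose, male CA1 and Sertoli clones 6 and 1 each, while 4 fell in each of the 3 female clone groups and 1, 0 and 0 rose. Of all genes 10.3%, 13.3% and 10.8% were called lower and 18.3%, 17.7% and 15% higher in these male groups, and 3.36% to 6.67% lower and 1.95% to 13% higher in the female ones. The transcription factors Foxa2 and Gata4, and Cubn, an endocytic receptor of visceral endoderm, fell in all 6 groups, and Gata6 rose in male Purkinje (0.77) and Sertoli clones (0.72). Of 6 parietal endoderm markers 1 or 2 fell in each group and 1 rose in male Purkinje clones; Pth1r, the receptor for parathyroid hormone-related protein, fell in all 6, by 3.18 to 4.81. The mean level over that list ran from -1.66 to 1.15 over all clones, against -0.12 to 1.02 over all IVF blastocysts. The part of these cells in the collagen and laminin differences was not tested.

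Nidogens and the glycoproteins Sparc and fibronectin gave few calls. Nid1, which bridges laminin and collagen IV, was called in no comparison, with differences of -0.35 to 0.46 from IVF. Nid2, its paralogue, rose in male Purkinje clones, which measured 2.85, 2.31, 2.78 and 2.51 against 0.64 to 2.11 in male IVF blastocysts (median 1.78). All 4 clones lay above all 7 IVF blastocysts, by a mean of 0.98 (adjusted p = 0.0239), and the call was lost without Purkinje replicate 1 (0.90) or 3 (0.92) or IVF replicate 2 (0.81). The difference was 0.64 after scaling to the array median. After normexp correction it was 0.43, below the median of all genes in that run.

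Sparc, a collagen-binding glycoprotein abundant in parietal endoderm, fell in female Purkinje clones, which measured 3.45, 3.95, 2.01 and 2.91 against 5.54, 4.19 and 5.74 in female IVF blastocysts. The groups did not overlap and the difference was -2.07 (adjusted p = 0.00926), or -1.78 without IVF replicate 3, where the call was lost. In the other 5 clone groups Sparc differed by -0.81 to -0.93, which did not pass, and its second probe was lower in all 6 groups by 1.51 to 3.78. Fn1, which forms the fibronectin matrix that several integrins bind, likewise fell in female Purkinje clones, with -3.22, -1.59, -1.81 and -2.53 against 0.47, -0.48 and -0.66 in female IVF blastocysts (-2.06, adjusted p = 0.0116). That call was lost without IVF replicate 1 (-1.72) and after normexp correction (-0.95).

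The collagen receptor subunit Itga11 rose in 4 of the 6 clone groups. It measured 1.74, 0.82, 0.38 and 0.06 in male Purkinje clones, 1.45, 1.80, 1.85 and 1.74 in male CA1 clones and 1.44, 1.76, 1.44 and 2.65 in Sertoli clones, against -3.43 to 0.45 in male IVF blastocysts (median -2.44). CA1 and Sertoli clones lay above every male IVF blastocyst, and 2 of the 4 Purkinje clones lay below the highest of them. Itga11 rose by 2.66 ± 0.55 (adjusted p = 0.000685) in Purkinje, 3.62 ± 0.55 (adjusted p = 1.22e-05) in CA1 and 3.73 ± 0.55 (adjusted p = 1.7e-05) in Sertoli clones.

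In females Itga11 was 0.32, 1.78, 1.28 and -0.04 in Purkinje clones, 0.54, 1.17, -1.06 and 0.79 in CA1 clones and 0.30, 0.47 and 0.18 in cumulus clones, against -0.57, -1.13 and -2.64 in IVF blastocysts. Female CA1 replicate 3 was the 1 clone within the IVF range. The rise of 2.28 in Purkinje clones passed (adjusted p = 0.0165), but not without Purkinje replicate 2 (1.96) or IVF replicate 3 (1.68); the differences of 1.81 in CA1 and 1.76 in cumulus clones did not pass.

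Itgb3, the beta subunit of the vitronectin receptor, which trophoblast uses in attachment, was low in CA1 clones. All 4 male CA1 clones were on the floor, against levels of -1.16 to 0.79 in male IVF blastocysts (median -0.02), so it was at least 9.42-fold lower (adjusted p = 8.29e-05). Female CA1 clones measured -2.76, -2.56, -1.57 and -2.26, against 0.60, -0.09 and -0.01 in female IVF blastocysts, a fall of 2.45 (adjusted p = 0.0188) that was lost without IVF replicate 1 (-2.23) or CA1 replicate 1 (-2.29). A second, dim probe of Itgb3 differed by 0.05 in male and 0.24 in female CA1 clones.

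Cumulus clones (0.62, 1.05 and 0.41) and Sertoli clones (-0.99, -0.66, -0.53 and -0.41) were not called for Itgb3. In male Purkinje clones its levels ran against the brightness of the arrays. In female ones the brightest array held the lowest level, and the dim arrays showed no such order. Male replicates 1 to 4 measured -3.32, -1.30, 0.14 and 0.55 on arrays with 75th percentiles of 659.1, 602.9, 367.7 and 229.7. Female replicates measured -2.70, 0.76, 0.82 and 0.03 on arrays with 838, 353.8, 469.6 and 430. The part of array signal in these values was not tested.

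Itga6, the laminin receptor subunit that pairs with Itgb1 or Itgb4, rose in Sertoli clones, which measured 6.09, 5.97, 6.06 and 6.21 against 4.77 to 5.36 in male IVF blastocysts (median 5.09). The groups did not overlap, and the difference was 1.05 ± 0.22 (adjusted p = 0.000692), or 1.07 without a call after normexp correction. Itga6 also rose in male (0.74, adjusted p = 0.0112) and female Purkinje clones (0.74, adjusted p = 0.0456). Without 5 dim Purkinje arrays (75th percentile below 500; male replicates 3 and 4, female replicates 2 to 4), the male difference was 0.34 and the female one -0.13, each without a call. Quantile normalization gave 0.30 and 0.19, also without a call. The male call was lost without replicate 3 (0.62) or 4 (0.59), and the female call without Purkinje replicate 2 (0.49), 3 (0.66) or 4 (0.78) or IVF replicate 2 (0.75) or 3 (0.59).

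Itgb1, the beta subunit shared by most matrix receptors, fell in CA1 clones. It measured 1.55, 1.00, 1.03 and 0.43 in male CA1 clones, against 1.31 to 2.38 in male IVF blastocysts (median 1.53), and 0.51, 1.09, 0.05 and 0.75 in female CA1 clones, against 1.77, 1.72 and 1.39 in female IVF blastocysts. The differences were -0.65 (adjusted p = 0.0373), with overlap, and -1.03 (adjusted p = 0.0176), without. A second probe of Itgb1 differed by 0.29 and 0.34 in the opposite direction, and the calls were lost with the mean over probes (-0.18 and -0.34). Single arrays also ended them: male IVF replicate 3 (-0.52) or 5 (-0.58), male CA1 replicate 2 (-0.64), 3 (-0.66) or 4 (-0.46), female IVF replicate 1 (-0.96) or 2 (-0.98) and female CA1 replicate 3 (-0.84).

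Itgb5, another partner of the alpha v subunit, rose in male CA1 clones, with 4.89, 5.36, 5.42 and 5.41 against 2.85 to 4.49 in male IVF blastocysts (median 4.12), a rise of 1.43 ± 0.32 (adjusted p = 0.00112) with no overlap. Its difference in female CA1 clones, 1.07, did not pass. Itgb7, an integrin subunit of lymphocytes, rose in male CA1 clones, with 0.49, 1.47, 1.65 and 0.91 against -2.91 to -0.27 in male IVF blastocysts (median -0.83; 2.30, adjusted p = 0.00376). It rose in Sertoli clones as well (1.94, adjusted p = 0.0157), a call lost without Sertoli replicate 4 (1.54).

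The laminin receptor subunits Itga3 and Itgb4 fell in male Purkinje clones. Itga3 measured -1.27, -1.17, -1.80 and -2.04 there, against -0.85 to -0.49 in male IVF blastocysts (median -0.72), a difference of -0.90 (adjusted p = 0.00526) with no overlap. It was -0.55 without the dim Purkinje arrays and -0.33 after normexp correction, each without a call. Itgb4, the hemidesmosome subunit, measured -1.84, 0.69, -0.91 and -1.08, against -0.05 to 1.46 (median 0.67). Its difference of -1.42 (adjusted p = 0.0473) was lost without any one of Purkinje replicates 1 (-1.07), 3 (-1.38) and 4 (-1.32) and of IVF replicates 1, 2, 3, 6 and 7 (-1.28 to -1.46). Itga1, Itga7, another laminin receptor subunit, and Itgb2 were called in no clone group. Itga7 lay on the floor in all clones, and Itga5, the fibronectin receptor subunit, was above background on 11 arrays and not tested.

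**Figure D3:**
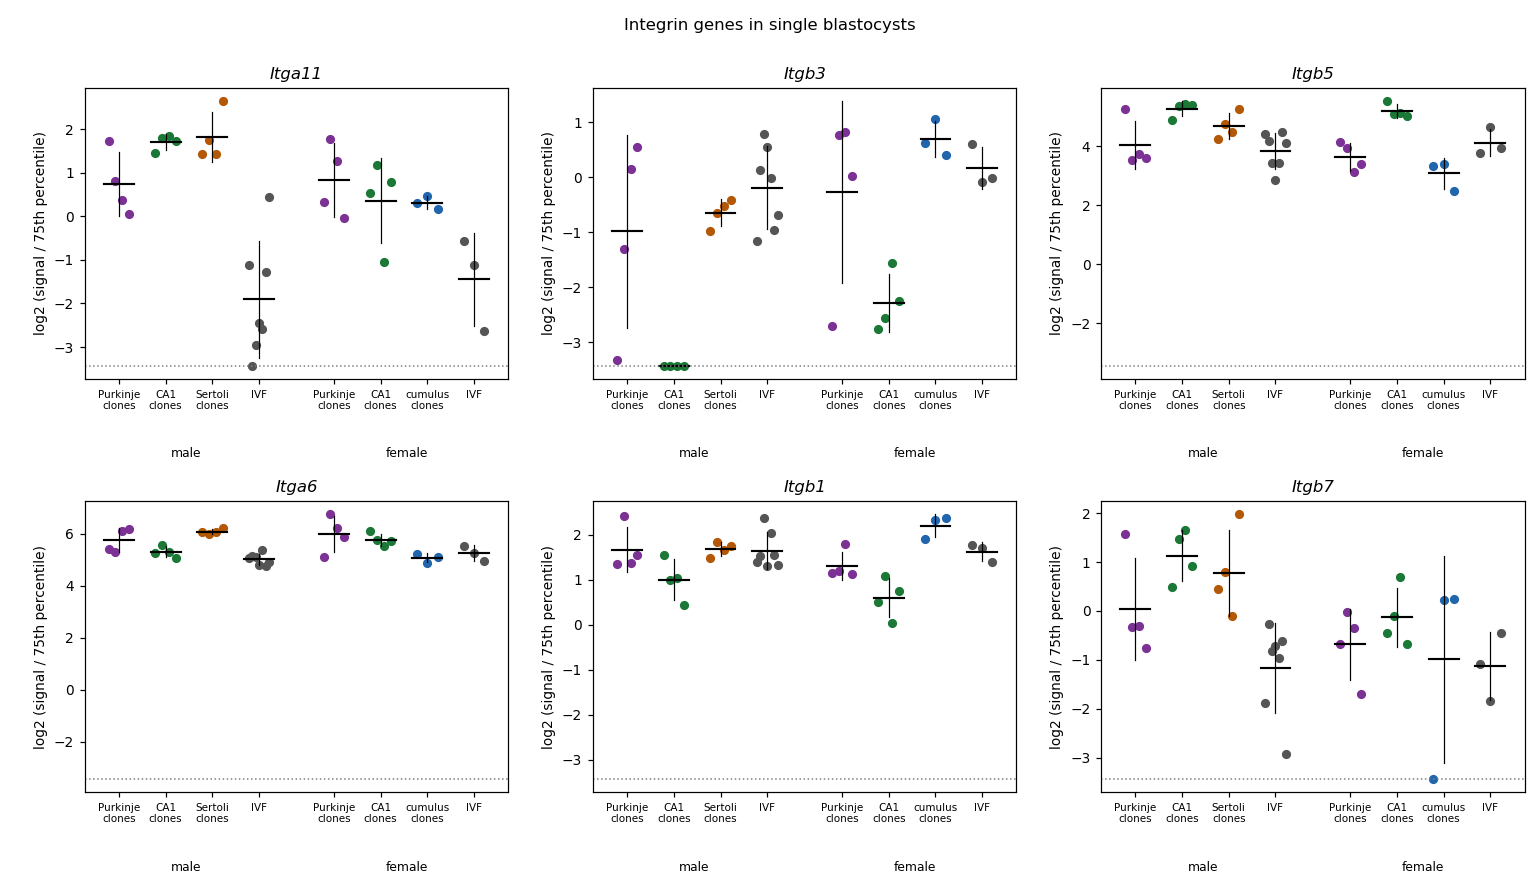
Log2 levels of 6 integrin genes in each blastocyst, with the mean and SD of each group; the dotted line is the floor at -3.43. Itga11 is above most IVF blastocysts in all clone groups, Itgb3 lies on the floor in the 4 male CA1 clones, and Purkinje clones range from -3.32 to 0.82 for Itgb3.

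Of 34 other collagen genes 17 were tested. Col13a1, a transmembrane collagen of cell adhesion sites, was called in all 6 clone groups. All 12 male clones were on the floor, against -3.07 to -0.80 in male IVF blastocysts (median -1.15), so it was at least 3.54-fold lower in male Purkinje (adjusted p = 0.00237), CA1 (adjusted p = 0.00192) and Sertoli clones (adjusted p = 0.00267). In females the levels were -3.43, -3.43, -3.43 and -2.86 in Purkinje clones, -3.43 in all 4 CA1 clones and -2.72, -3.43 and -3.43 in cumulus clones, against 0.16, -3.16 and 0.25 in IVF blastocysts. Col13a1 was at least 5.71-fold lower in CA1 clones (adjusted p = 0.0021) and fell by 2.37 in Purkinje (adjusted p = 0.00248); in cumulus clones the fall was 2.28 (adjusted p = 0.0179).

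Groups on the floor add no spread to a fit, so the p-values of Col13a1 and Col6a3 can be too low. The cumulus call of Col13a1 was lost without IVF replicate 1 (-1.74) or 3 (-1.69) or cumulus replicate 2 (-2.16) or 3 (-2.16). After normexp correction the gene differed by -0.58 in male Purkinje, -0.98 in female Purkinje, -2.15 in female CA1 and -2.60 in cumulus clones, without a call.

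Col6a3, an alpha chain of the beaded filament collagen VI, fell in 5 clone groups. All 4 male Purkinje and all 4 Sertoli clones were on the floor, and CA1 clones measured -3.43, -2.46, -3.43 and -3.16, against -1.80 to -0.13 in male IVF blastocysts (median -0.76). No male clone reached the IVF range. It was at least 6.06-fold lower in Purkinje (adjusted p = 5.86e-05) and Sertoli clones (adjusted p = 5.95e-05) and fell by 2.29 in CA1 clones (adjusted p = 0.000149).

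In females Col6a3 measured -3.43, -2.80, -3.43 and -3.43 in Purkinje, -3.43, -3.43, -3.43 and -1.45 in CA1 and -3.43 in all 3 cumulus clones, against -1.65, -3.06 and 0.43 in IVF blastocysts. Col6a3 fell by 1.85 in Purkinje clones (adjusted p = 0.0123), was at least 4.01-fold lower in cumulus clones (adjusted p = 0.0318), and its difference of -1.51 in CA1 clones did not pass. Without IVF replicate 3 the difference was -0.92 in Purkinje and -1.07 in cumulus clones, and without IVF replicate 1 it was -2.11 in cumulus clones, each without a call. Leaving out any 1 cumulus array also ended the cumulus call (-2.0 each).

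Of the other collagens, Col5a3, Col20a1, Col5a1 and Col18a1 rose in some clone groups. Col5a3, a fibrillar collagen V chain, measured -1.81, -1.65, -2.47 and -2.04 in male CA1 and -0.85, 0.05, -2.04 and -0.55 in Sertoli clones, against -3.43 to -2.86 in male IVF blastocysts, 5 of which were on the floor. Neither group overlapped with IVF, and Col5a3 rose by 1.32 (adjusted p = 0.00828) and 2.47 ± 0.38 (adjusted p = 2.77e-05). Col20a1, a fibril-associated collagen, measured -0.44, -1.09, -0.99 and -0.99 in male CA1 clones, against -3.27 to -1.56 in male IVF blastocysts (median -2.42), and -0.95, 0.26, -1.53 and 0.18 in female CA1 clones, against -3.43, -1.73 and -1.69 in female IVF blastocysts.

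Col20a1 rose by 1.47 (adjusted p = 0.00974) and 1.77 (adjusted p = 0.0235) in these CA1 clones with no overlap, the second call being lost without female IVF replicate 1 (1.2) or CA1 replicate 2 (1.52) or 4 (1.54). Col5a1, the main collagen V chain, rose in male CA1 (1.82, adjusted p = 0.00962), Sertoli (1.51, adjusted p = 0.0355) and female CA1 clones (2.06, adjusted p = 0.0327). Its second probe differed by 0.74, -0.27 and -0.50 in these groups. The female call was lost without any one of 5 arrays (1.89 to 2.12), and the Sertoli call without any one of 6 (1.08 to 1.62).

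Col18a1, the basement membrane collagen that yields endostatin, rose in male CA1 clones, with -2.11, -1.76, -1.41 and -0.56 against -3.43 to -1.97 in male IVF blastocysts (median -3.05; 1.55, adjusted p = 0.0178). Replicate 1 lay within the IVF range, the call was lost without replicate 4 (1.25), and a second probe of Col18a1 differed by 0.08. Col11a1, a cartilage collagen, was on the floor in all 4 female Purkinje clones, against -0.88, -2.81 and -3.43 in female IVF blastocysts, at least 2.08-fold lower (adjusted p = 0.0406). The call was lost without any one of the 4 clones (-1.06 each) or IVF replicate 1 (-0.31), and the difference was 0.51 after normexp correction. The other 10 tested collagens, Col2a1, Col5a2, Col7a1, Col9a2, Col11a2, Col14a1, Col17a1, Col19a1, Col22a1 and Col24a1, were called in no clone group.

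**Figure D4:**
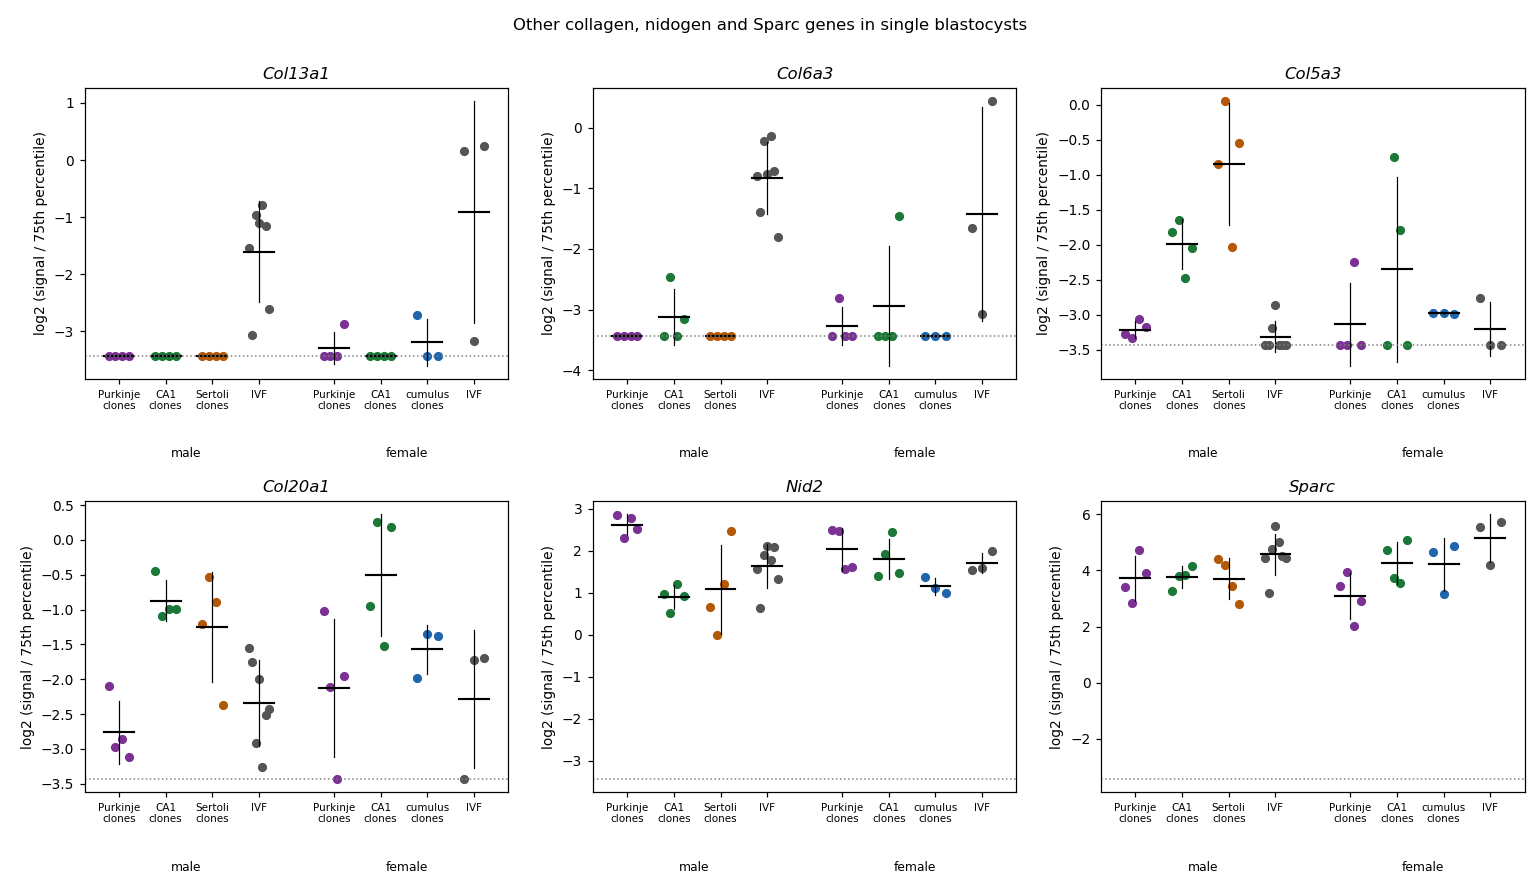
Log2 levels of 4 further collagens, Nid2 and Sparc in each blastocyst, with the mean and SD of each group; the dotted line is the floor at -3.43. Col13a1 and Col6a3 lie on or near the floor in clones, Col5a3 and Col20a1 are above IVF blastocysts in male CA1 and Sertoli or CA1 clones, and Nid2 is highest in male Purkinje clones.

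Some genes entered the set only by the spelling of a name and are not matrix proteins or receptors. For Eif6, Cert1 and Nmrk2 this was an older name. Eif6, a ribosome assembly factor once named for binding integrin beta 4, rose in male CA1 clones, with 5.92, 6.07, 5.86 and 5.85 against 4.41 to 5.22 in male IVF blastocysts (median 4.87; 1.07 ± 0.18, adjusted p = 6.73e-05). Its 2 other probes differed by -1.69 and 0.44, and the mean over probes gave -0.06. Itgb1bp1, a cytoplasmic protein that binds the beta 1 tail, rose in male CA1 (0.94, adjusted p = 0.00834) and Sertoli clones (1.43, adjusted p = 0.000304), the first call being lost without CA1 replicate 2 (0.74). Cert1, a ceramide carrier, rose in Sertoli clones (0.92, adjusted p = 0.0287), a call lost without any one of 5 arrays (0.76 to 0.84). Itgb3bp was called in no clone group, and Itgb1bp2 and Nmrk2 were not tested.

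Clones of different donors were compared within the newer array set, where scanner model and software were the same. Purkinje, CA1 and Sertoli arrays were scanned on different days, and both sexes of a neuronal donor on the same day. Donor cannot be told apart from scan day or slide in these comparisons, in either sex. Against male CA1 clones, 2 genes of the set were higher and 8 lower in male Purkinje clones (20.8% of the set, where 10.9% of all genes were called higher and 7.59% lower, 18.5% in all). After normexp correction the split was 25 to 3, and it was 4 to 4 in the authors' deposited table. Nid2 was 1.71 ± 0.37 higher (adjusted p = 0.00197), with 2.85, 2.31, 2.78 and 2.51 in Purkinje and 0.96, 0.52, 1.21 and 0.92 in CA1 clones, and this call held under every alternative run. Itgb3 was at least 5.45-fold higher (adjusted p = 0.00873), a call lost without Purkinje replicate 4 (1.93).

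Lower in male Purkinje than in male CA1 clones were Col20a1 (-1.89, adjusted p = 0.0075), Col5a1 (-1.88), Itgb4 (-1.71), Col18a1 (-1.64), Itgb5 (-1.24), Col5a3 (-1.22), Itga3 (-0.95, adjusted p = 0.0137) and Eif6 (-0.73, adjusted p = 0.0148). Col20a1 alone among these 8 kept its call without each single array. Without the 2 dim male Purkinje arrays 1 call was left, that of Nid2. In females 1 gene was higher and 4 lower in Purkinje than in CA1 clones (10.4% of the set, against 6.19% of all genes called higher and 4.83% lower, 11% in all), and the split was 1 to 2 after normexp, 0 to 4 after quantile normalization and 0 to 10 after scaling to the array median. Lama5 was 1.08 lower in Purkinje clones (adjusted p = 0.00266), with 4.92, 4.67, 3.94 and 4.35 against 5.91, 5.47, 5.06 and 5.78 in CA1 clones. Without the dim Purkinje arrays the Lama5 difference was -0.63 and that of Itgb5 -1.05, both without a call.

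The other female calls against CA1 clones were Itgb5 (-1.54, adjusted p = 0.0064), Col20a1 (-1.62, adjusted p = 0.029), Col5a1 (-1.99, adjusted p = 0.0301) and Itgb3 (2.01, adjusted p = 0.0407). The Itgb3 difference was -0.41 without the 3 dim female Purkinje arrays, which left 1 Purkinje array assumed to vary like the other groups. Itgb3 was thus lower in CA1 than in Purkinje clones in the calls of both sexes. In Purkinje clones of each sex its level was lowest on the brightest array, as given above. Col20a1, Col5a1 and Itgb3 lost their female call without any one of 5, 5 and 6 arrays, at -1.18 to -1.68, -1.83 to -1.99 and 1.65 to 2.02.

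Against Sertoli clones, 1 gene was higher and 1 lower in male Purkinje clones (4.17% of the set, where 3.36% of all genes were called higher and 1.42% lower, 4.79% in all). Nid2 was 1.53 higher (adjusted p = 0.0123), and not without Sertoli replicate 2 (1.17), and Col5a3 was 2.36 lower (adjusted p = 0.00109). The split was 10 to 3 after normexp, 0 to 1 after scaling to the array median and 1 to 0 in the authors' deposited table. In male CA1 clones 1 gene was higher and 2 lower than in Sertoli clones (6.25% of the set, against 5.52% of all genes called higher and 6.32% lower, 11.8% in all), with 0 to 1 after normexp and 0 to 3 after scaling to the array median. Itgb3 was at least 6.88-fold lower (adjusted p = 0.00595), Itga6 0.77 lower (adjusted p = 0.0362) and Eif6 0.75 higher (adjusted p = 0.0192). The Itga6 call was lost without any one of 7 of the 8 arrays (-0.70 to -0.81), and that of Eif6 without Sertoli replicate 1, 2 or 3 (0.68 to 0.71).

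Both sexes were available for Purkinje and CA1 clones, with separate IVF controls. Of the genes called higher in male and female Purkinje clones, Itga11 and Itga6 were shared (2 of 3 in each sex, 66.7%), and of those called lower, Col13a1, Col4a2, Col6a3 and Lamb1 (50% of the male and 57.1% of the female list). In CA1 clones Col20a1 and Col5a1 were called higher in both sexes (22.2% of the male and 66.7% of the female list). Col13a1, Col4a2, Itgb1, Itgb3 and Lamb1 were called lower in both, which was 62.5% of the male and 100% of the female list. The overlap between the sexes over all genes is not given here, so these shares do not set the genes apart. In both sexes the neuronal clones and the IVF blastocysts also lay in different array sets.

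No gene of the set was called between male and female IVF blastocysts (0.114% of all genes were called higher and 0.323% lower, 0.437% in all); 4 genes had an unadjusted p under 0.05 in limma there. None was called for a sex difference in the size of its clone effect, in Purkinje (0.0443% of all genes higher, 0.0127% lower, 0.057% in all) or in CA1 clones (0.589% higher, 0.488% lower, 1.08% in all). The unadjusted p was under 0.05 for 1 gene in Purkinje and 3 in CA1 clones, where the interaction reached 3.34 for Itga1 in Purkinje clones (adjusted p = 0.479 in limma), 3.25 for Col9a2 (adjusted p = 0.195), 1.81 for Itga11 (adjusted p = 0.352) and -0.75 for Lama5 (adjusted p = 0.323) in CA1 clones. Effects past the threshold in 1 sex were therefore not shown to differ from those in the other.

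In chosen pairs of matrix genes, levels also varied together between blastocysts of a group. Pairs drawn from all genes were not correlated, so these values do not set matrix genes apart. After each group's mean was subtracted, Col4a1 and Col4a2 correlated at r = 0.806 over the 33 blastocysts (rho = 0.753, permutation test, adjusted p = 3e-05, from the smallest p that the permutations can give). The relation held in the older array set (r = 0.742, n = 13, permutation adjusted p = 0.00613) and in the newer one (r = 0.862, n = 20, adjusted p = 6e-05), and without the 2 blastocysts farthest out in Col4a1 (r = 0.742). Within the 7 male IVF blastocysts r was 0.623 (exact permutation p = 0.109). The permutations over several groups shuffled deviations across groups and made no allowance for the group means taken out. Their p-values can therefore be too low.

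Lamb1 and Lamc1 correlated at r = 0.619 over 32 blastocysts (rho = 0.607, permutation adjusted p = 0.00024), at 0.74 in the older set (n = 12) and at 0.483 in the newer one (n = 20, permutation adjusted p = 0.0457). Without the 2 farthest blastocysts r was 0.52 overall and 0.306 in the newer set. Lamc1 and Col4a1 correlated at r = 0.56 (rho = 0.556, permutation adjusted p = 0.00093). That relation was found in the older set (r = 0.863, n = 12, adjusted p = 0.00117) and not in the newer one (r = 0.345, n = 20, permutation p = 0.135). These were 3 relations, adjusted together, and their p-values over several groups can be too low for the reason given above. Blastocysts of a group shared slide and scan day, except in the male IVF group. There replicates 1 to 4, replicate 5, and replicates 6 and 7 lay on separate slides with separate scan days. Replicate 5 shared its slide with the female IVF blastocysts. Subtracting the group mean leaves such slide differences in the correlations of the older set.

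**Figure D5:**
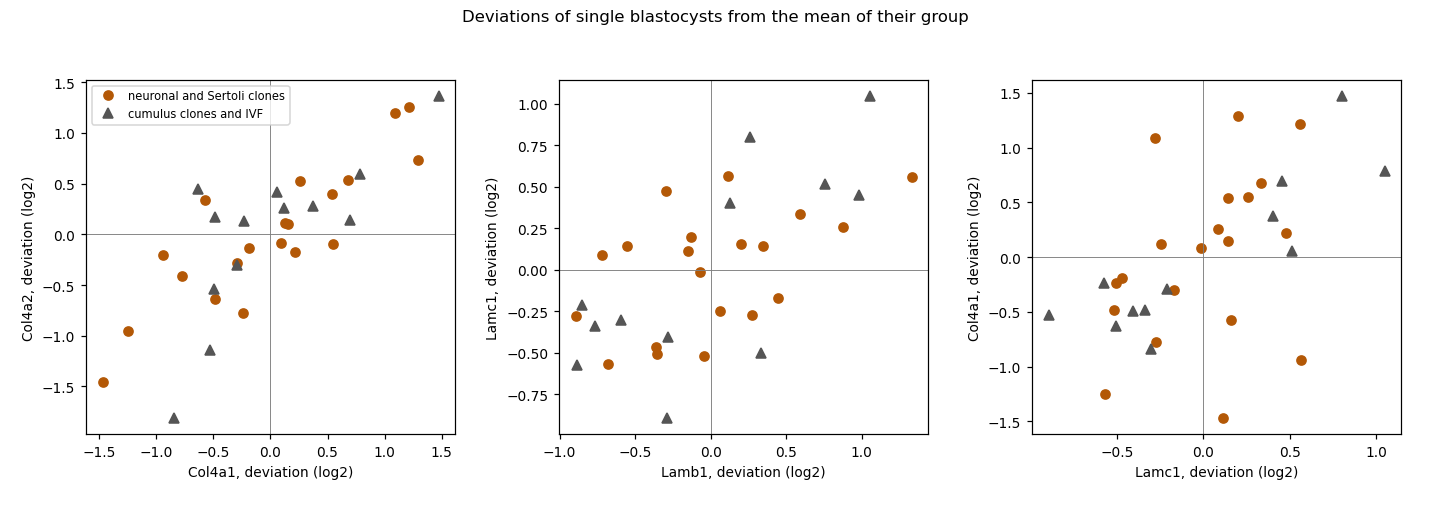
Deviations of log2 levels from the group mean in single blastocysts, for Col4a1 and Col4a2, Lamb1 and Lamc1, and Lamc1 and Col4a1. Circles are the 20 neuronal and Sertoli clones and triangles the cumulus clones and IVF blastocysts; the first pair lies along a line in both kinds (r = 0.862 and 0.742), the third chiefly among the triangles (r = 0.345 and 0.863).

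Other genes of the matrix pathway were followed through lists of known members. Against IVF, 28.6% and 19.7% of all genes were called in male and female Purkinje, 31% and 13.3% in male and female CA1, 25.8% in Sertoli and 5.31% in cumulus clones, and the median of all genes lay between -0.02 and 0.08. Of 12 tested genes of collagen processing, 33.3% and 25% were called in male and female Purkinje, 16.7% and 8.33% in male and female CA1 and 25% in Sertoli clones, which is 1 or 2 higher and 0 to 2 lower in each, and none in cumulus clones. Their median lay between -0.21 and -0.005. Serpinh1, the collagen chaperone of the endoplasmic reticulum, fell by 2.10 in male Purkinje, 1.57 in male CA1, 1.94 in Sertoli and 3.52 in female Purkinje clones. Its differences of -1.61 in female CA1 and -1.78 in cumulus clones did not pass. P4ha2, a subunit of collagen prolyl hydroxylase, rose by 0.86, 0.68 and 0.85 in the 3 male clone groups and by 0.86 in female CA1 clones, and Crtap, a partner of prolyl 3-hydroxylase, fell by 0.49 in male Purkinje and 0.58 in Sertoli clones.

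Of 11 tested partners of basement membrane and matrix, 18.2% and 27.3% were called in male and female Purkinje, 45.5% and 18.2% in male and female CA1 and 27.3% in Sertoli clones (1 to 3 higher and 1 or 2 lower), and none in cumulus clones. Their median lay between -0.16 and 0.15. Fbln1, a fibulin, rose by 0.68 to 1.32 in the 5 neuronal and Sertoli clone groups (0.69 in cumulus clones, not called). Tinagl1, a matrix protein of Reichert's membrane and decidua, fell by 1.38 to 1.60 in 4 of these groups and differed by -0.94 in male CA1 clones, where it did not pass. Thbs1, thrombospondin 1, lay on the floor in all male CA1 and Sertoli clones and was at least 2.42-fold lower there.

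Of 21 tested genes of the integrin adhesion machinery, which links receptors to actin, 42.9% and 19% were called in male and female Purkinje, 28.6% and 9.52% in male and female CA1, 23.8% in Sertoli and 9.52% in cumulus clones (1 to 6 higher and 0 to 3 lower). Their median lay between 0.01 and 0.33. Tns1, a tensin that binds integrin tails, rose by 1.23 to 1.64 in the 5 neuronal and Sertoli groups (0.67 in cumulus clones, not called). Actn1, alpha-actinin 1, fell by 1.02 in male Purkinje clones and was at least 2.48-fold lower in male CA1 and Sertoli clones, which lay on the floor. Cd151, a tetraspanin partner of laminin-binding integrins, rose by 0.70 to 0.91 in male CA1 and both female neuronal groups.

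Of the 3 tested integrins that are named by a letter, Itgae, a partner of Itgb7, rose by 1.14 to 1.92 in the male clone groups and by 1.71 in female CA1 clones; Itgal and Itgav were not called against IVF. Of 13 tested matrix proteases and inhibitors, 30.8% and 23.1% were called in male and female Purkinje, 46.2% in male CA1 and 15.4% in Sertoli clones (0 to 4 higher and 1 or 2 lower), and none in female CA1 and cumulus clones, with a median between -0.25 and 0.00. Htra1, a secreted serine protease, fell by 2.50 and 2.63 in male and female Purkinje clones and by 1.41 in male CA1 clones. Adam10, a membrane sheddase, rose by 0.90, 0.93 and 1.33 in male Purkinje, male CA1 and female Purkinje clones, and Serpine2, a protease inhibitor, fell by 1.22 in male CA1 and by 1.02 in Sertoli clones.

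Markers of other cells were checked beside these lists. Of 11 trophectoderm markers 27.3% to 45.5% were called in the 5 neuronal and Sertoli groups and none in cumulus clones (0 to 2 higher and 0 to 3 lower), with Krt7 falling by 1.08 to 2.70 in the 5 neuronal and Sertoli groups. Hand1 was on the floor in all male IVF blastocysts and at least 8.52-fold to 15.1-fold higher in the male clone groups, and rose by 3.79 in female Purkinje and 4.83 in female CA1 clones. The mean level over that list ran from 3.54 to 5.09 over all clones, against 3.98 to 4.50 in IVF blastocysts. Of 8 inner cell mass markers 0% to 50% were called per group (0 to 2 higher and 0 to 2 lower), and their mean level ran from 2.34 to 3.44 in clones, against 2.49 to 3.11 in IVF blastocysts.

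Markers of the donor cells were checked as well. Of 7 tested neuronal markers none rose in any clone group and 0 to 3 fell, and Rbfox3, Snap25, Syt1 and Gap43 were not tested because they did not pass the filter. Of 4 tested Sertoli markers none was called, and Sox9, Amh, Wt1, Fshr and Nr5a1 were not tested. Of 4 tested cumulus markers 1 or 2 rose in the neuronal and Sertoli groups and none in cumulus clones; Amhr2 rose by 1.71 to 2.69 in these 5 groups, and Has2, Ptgs2, Tnfaip6, Ptx3 and Inhba were not tested. Their part in the differences of the matrix genes was not tested.

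The 33 genes that did not pass the filter were 2 laminins (Lama2 and Lamb3), 2 collagen IV genes (Col4a3 and Col4a5), 17 other collagens, 10 integrins and 2 genes matched by name only (Itgb1bp2 and Nmrk2). The collagens were Col1a1, Col1a2, Col3a1, Col6a1, Col6a2, Col8a1, Col8a2, Col9a1, Col9a3, Col10a1, Col12a1, Col15a1, Col16a1, Col23a1, Col25a1, Col27a1 and Col28a1. The integrins were Itga2, Itga2b, Itga4, Itga5, Itga8, Itga9, Itga10, Itgb2l, Itgb6 and Itgb8. Their best probe was well above background on 0 arrays (Col6a1 and Col12a1) to 20 arrays (Col25a1), and they count as not measured well enough here, not as absent.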

How the data were processed

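Single blastocysts were profiled on one-colour arrays. Per the file headers, spot intensities were extracted with Agilent Feature Extraction, version 9.5.3.1 for IVF and cumulus arrays and 10.5.1.1 for the others; the submitters' processing notes name version 10.5.1. The deposited intensity values used are processed signals, already background-subtracted by the authors' extraction software; the authors' deposited value table, on a log2 scale judged from its values and with its centring unknown, served as an alternative. Processed signals were divided by each array's 75th percentile, a floor of 0.09286 was set, the highest over arrays of the percentile 1 of signals well above background (22.18% of values lay on it), and log2 was taken. The brightest probe stood for a gene, control spots and outlier spots were left out, and probes were kept where the software's detection call was positive for more than 50% of a group's arrays, in any group, and 3 or more arrays exceeded the floor (22789 probes, 15792 genes). Of 41174 probes, 23075 were named through an accession of the RefSeq table, 6587 through its symbol and 3072 through a synonym; 8440 kept the file's name. Group means over 33 arrays were fitted with limma 3.58.1 in R 4.3.3 with Benjamini-Hochberg adjustment (25 residual degrees of freedom); deviations were correlated with scipy 1.17.1 over 100000 permutations. Between pairs of arrays of a group, r lay between 0.9295 and 0.9828; the number of arrays limits the precision.

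On simulated data for male CA1 against male IVF blastocysts (15792 genes), 40% of genes changed by 1 and 84% of those changed by 2 on the log2 scale were recovered, with 14 false calls. The simulation changed 100 genes by each amount, with normal spread and no floor. Far more genes were called in the data, and many values lay on the floor, so these shares need not hold there. The rule for genes named with values took a set chosen by role (Lama5, Lamb1, Lamc1, Nid1, Nid2, Hspg2, Col4a1, Col4a2, Sparc, Fn1, Itga3, Itga5, Itga6, Itga7, Itgb1, Itgb4 and Itgb5), members called the same way in at least 4 of the 6 comparisons with IVF, the 5 smallest adjusted p-values of each comparison, and up to 3 genes with the most calls in each further list; other called members, named so that each is accounted for, and single marker genes of other cell types were chosen after their values were seen. A bound "at least N-fold" compares the brighter group's mean with the dim group's, each dim array taken at the highest of its own value, the lowest signal well above background and the floor. Alternatives were other scalings and backgrounds, filters, probe means, blocks and single arrays left out. The values of 1 tested gene are not reported here. The members and lists were chosen with earlier results of these data known.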

Additional observations from a re-analysis of the deposited data

Results flagged for a closer look

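In 17 of 172 groups of values a single blastocyst stood apart from the rest of its group, where chance alone gives about 1 in 20 for values without a floor. Where all other blastocysts of a group lay on the floor, any value above it was flagged, as for Lamc3 in male IVF replicate 6. The share found can therefore not be set against that rate. Male CA1 replicate 1 was apart for 3 genes: Col20a1 measured -0.44 there, against -1.09 to -0.99 in the other male CA1 clones, Itgb4 -0.25, against 1.24 to 1.38, and Itgb5 4.89, against 5.36 to 5.42. Among other male clones, Itgb5 was 5.26 in male Purkinje replicate 1 (others 3.54 to 3.72), Eif6 5.71 in Sertoli replicate 4 (others 4.95 to 5.03) and Nid1 4.58 in the same blastocyst (others 5.13 to 5.22).

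Among female Purkinje clones, replicate 3 was apart for Col4a4 (-1.82, others -1.45 to -1.38), Col5a3 (-2.24, others on the floor at -3.43) and Itgb1 (1.79, others 1.13 to 1.19). Replicate 1 was apart for Col18a1 (-0.87, others -3.43 to -3.02). Col6a3 was above the floor in 1 female Purkinje clone, replicate 2 (-2.80), Col13a1 in 1, replicate 4 (-2.86), and Col6a3 in 1 female CA1 clone, replicate 4 (-1.45). Male IVF replicate 6 was apart for Col18a1 (-1.97, others -3.43 to -2.98) and Lamc3 (-2.47, others on the floor), replicate 4 for Col5a3 (-2.86, others -3.43 to -3.19) and replicate 5 for Fn1 (0.69, others -1.04 to -0.30).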

How the results depend on the processing

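Of 82 called differences, 18 kept their call under every alternative run on them: Col13a1, Col6a3 and Itga11 in male CA1 and Sertoli clones, Itga11 and Col4a4 in male Purkinje clones, Col4a4, Col4a2, Itgb3, Itgb5, Itgb7 and Lamb1 in male CA1 clones, Col5a3 and Itgb1bp1 in Sertoli clones, Nid2 in male Purkinje against CA1 clones and Itgb3 in male CA1 against Sertoli clones. Without at least 1 single array, 46 of the 82 calls were lost, and 33 of 38 calls that involve Purkinje clones were lost or reversed without their 5 dim arrays. Normexp correction on median signals was chosen after seeing the data, because the mean signal was not among the columns of the newer arrays. Its counts include genes of the set that were not tested under the main scaling. It gave 30 calls in place of 11 for male Purkinje, 6 in place of 13 for Sertoli, 32 in place of 10 for female Purkinje, 4 in place of 8 for female CA1 and 0 in place of 3 for cumulus clones against IVF, and 28 in place of 10 for male and 3 in place of 5 for female Purkinje against CA1 clones, 13 in place of 2 for Purkinje against Sertoli and 1 in place of 3 for CA1 against Sertoli clones.

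Scaling to the array median gave 10 calls for female Purkinje against CA1 clones and 1 for Purkinje against Sertoli clones, where the authors' deposited table also gave 1 and a floor 4 times lower gave 5. With no filter on dim probes CA1 against Sertoli clones gave 5 calls. Averaging probes gave 5 in female CA1, 5 in cumulus, 5 in CA1 against Sertoli clones and 1 for the sex difference of the CA1 effect. A fit to the compared groups alone, which leaves fewer arrays to estimate the spread, gave 8 in Sertoli, 3 in female Purkinje, 3 in female CA1, 0 in cumulus clones, 2 in female Purkinje against CA1, 1 in Purkinje against Sertoli and 5 in CA1 against Sertoli clones. Without the dim Purkinje arrays 4 (male) and 1 (female) were called against IVF, and 1 and 0 against CA1 clones. Signs turned for Col11a1 in female Purkinje clones (0.51, normexp), Col5a3 in male Purkinje against CA1 clones (0.28, normexp), Eif6 in male CA1 clones (-0.062, mean over probes), Itga6 in female Purkinje clones (-0.13, dim arrays left out) and Itgb3 in female Purkinje against CA1 clones (-0.41, dim arrays left out). The cause of these changes was not tested.

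Leaving out 1 array at a time gave 6 to 13 calls in male Purkinje, 15 to 18 in male CA1, 10 to 13 in Sertoli, 6 to 10 in female Purkinje, 3 to 7 in female CA1 and 0 to 3 in cumulus clones, 2 to 9 in male and 2 to 6 in female Purkinje against CA1 clones, 2 to 4 in Purkinje against Sertoli, 1 to 4 in CA1 against Sertoli clones, 0 to 1 between IVF sexes and 0 for both interactions; r ran from 0.763 to 0.854 for Col4a1 with Col4a2, 0.556 to 0.673 for Lamb1 with Lamc1 and 0.473 to 0.672 for Lamc1 with Col4a1. The arrays that moved a count by over 1.5 times were male Purkinje replicates 3 (7 against IVF, 4 against CA1), 4 (6 and 2) and 1 (4 against Sertoli), male CA1 replicate 4 (6 for Purkinje against CA1), Sertoli replicate 1 (1 for CA1 against Sertoli), female Purkinje replicates 2, 3 and 4 (2, 3 and 2 against CA1), female CA1 replicates 2 and 4 (2 each), female CA1 replicates 1 and 2 (4 and 5 against IVF), female IVF replicates 1 (3 for CA1, 0 for cumulus), 2 (1 between IVF sexes) and 3 (6 for Purkinje), and cumulus replicates 2 and 3 (0 each). Same-numbered samples correlated at -0.207 to 0.318, so the numbers do not pair them; a replicate block gave, against IVF, 9 calls in male and 11 in female Purkinje, 14 in male and 12 in female CA1, 11 in Sertoli and 3 in cumulus clones. Slide as a random block gave 10 and 8, 16 and 7, 11, and 2 in the same order. Signal over background limits the low genes, whose differences are bounded by the floor.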
